A study of Rattus norvegicus with 16 samples.

Results

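The transcripts of 10 cardiac muscle genes were followed in rat blood that had been drawn by needle from the heart. The 10 genes, of the 18031 that were listed in every deposited file and the 26405 listed in any, were Mb, Actc1, Tnni3, Tnnt2, Tnnc1, Myh6, Myh7, Myl2, Myl3 and Nppa. They were selected by symbol, taking the entry with the highest total where a symbol had several, and they were chosen with their measured levels in these libraries already known. Their levels are therefore given as a description.

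The 16 libraries formed a single group, saline controls, and no treated group was compared. Each came from an adult male Sprague-Dawley rat of Charles River, 85 to 90 days old and carrying no transgene or engineered allele. The rats received 4 injections of 1 ml/kg saline 2 h apart, had neither food nor water over this period, and were sacrificed 3 h after the last one, when blood was taken by cardiac puncture and frozen. RNA of whole blood was depleted of alpha and beta globin mRNA and sequenced after selection of polyadenylated RNA. The study set aside control animals with very high Mb counts, and no library here had more than 131 counts of Mb.

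The contractile unit of a heart muscle cell is the sarcomere, in which thick filaments of myosin pull on thin filaments of actin. The troponin complex sits on the thin filament, where troponin C binds calcium, troponin I holds the filament off and troponin T ties the complex to tropomyosin. Myoglobin stores oxygen in the same cells, and the atrial natriuretic peptide is a hormone of the atrium that lowers blood volume. Cardiac troponin proteins in plasma are known as clinical markers of heart injury.

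The sequence just upstream of the start is shown for Mb, the gene on which the study screened its animals, and for Myl3, the only member found to hold a CArG box. Both are from RefSeq for assembly GRCr8, which is not the rn5 build of the count files, and each is the 250 bases that end at the base before the start. Mb lies on the minus strand at chr7:110647743-110647992 and Myl3 on the plus strand at chr8:119616844-119617093. Capitals in Mb mark a TATA box, and capitals in Myl3 mark, from the left, an MCAT element on the opposite strand, an MCAT element and the CArG box.
Mb: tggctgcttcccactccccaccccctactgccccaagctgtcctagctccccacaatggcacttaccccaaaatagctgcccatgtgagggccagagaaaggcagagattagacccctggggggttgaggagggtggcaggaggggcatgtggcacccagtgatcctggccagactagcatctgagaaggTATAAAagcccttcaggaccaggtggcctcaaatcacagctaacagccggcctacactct
Myl3: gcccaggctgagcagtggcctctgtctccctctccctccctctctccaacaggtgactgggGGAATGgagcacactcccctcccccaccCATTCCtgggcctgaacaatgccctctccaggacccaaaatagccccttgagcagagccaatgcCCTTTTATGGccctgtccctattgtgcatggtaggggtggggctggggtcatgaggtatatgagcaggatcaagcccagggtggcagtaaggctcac

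An entry was found for 8 of the 10 members, without Myl2 and Tnnc1, and both strands were searched for each motif except the TATA box. The MCAT element, CATTCC, which TEAD factors bind, was held by Tnnt2, Myh6 and Myl3 and by 12.1% of the 33469 upstream pieces of all genes. The CArG box, the site of serum response factor, was held by Myl3 alone among the members and by 1.50% of all pieces. The TATA box, read as TATAAA on the coding strand, was held by Mb and Nppa and by 8.06% of all pieces. A match describes the letters only.

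The files held estimated counts per gene, and their totals ranged from 21466776 to 31189549 per library. Levels are given as normalized counts, the rounded estimated count divided by the DESeq2 size factor of the library, with the mean ± SD over the 16 libraries. They are not divided by transcript length, so one gene was not ranked above another. A value of at least 3 counts was taken as above the detection floor, which corresponds to 0.096 to 0.14 CPM (the count as a share of the library total, scaled as is usual for RNA-seq), depending on the library, and covers counting error only. The labelled tissue was checked on 9 markers of leukocytes, platelets and erythroid cells, and all 9 had at least 3 counts in all 16 libraries. File names carried one of 6 run codes, named here A to F, which the labels do not explain. The study's rats came from several experiments, and differences between run codes and between experiments cannot be told apart here.

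The members were mostly near the detection floor. Of the 160 values of 10 members in 16 libraries, 45 were 0, 42 were 1 or 2 counts and 73, or 45.6%, reached 3 counts, whereas 76.3% of the values of all genes listed in every file did. Tnnc1 was the only member with at least 3 counts in all 16 libraries, a level reached by 65.4% of all genes. Without Tnnc1, 57 of 144 values reached the floor, which is 39.6%. Control 3 and control 10 each had 9 members above the floor after rounding, or 7 and 8 on the unrounded estimates, where Myh6 and Myh7 were at 2.5 each in control 3 and Myh7 at 2.69 in control 10, and controls 1, 6, 8 and 11 had only Tnnc1 there.

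**Figure D1:**
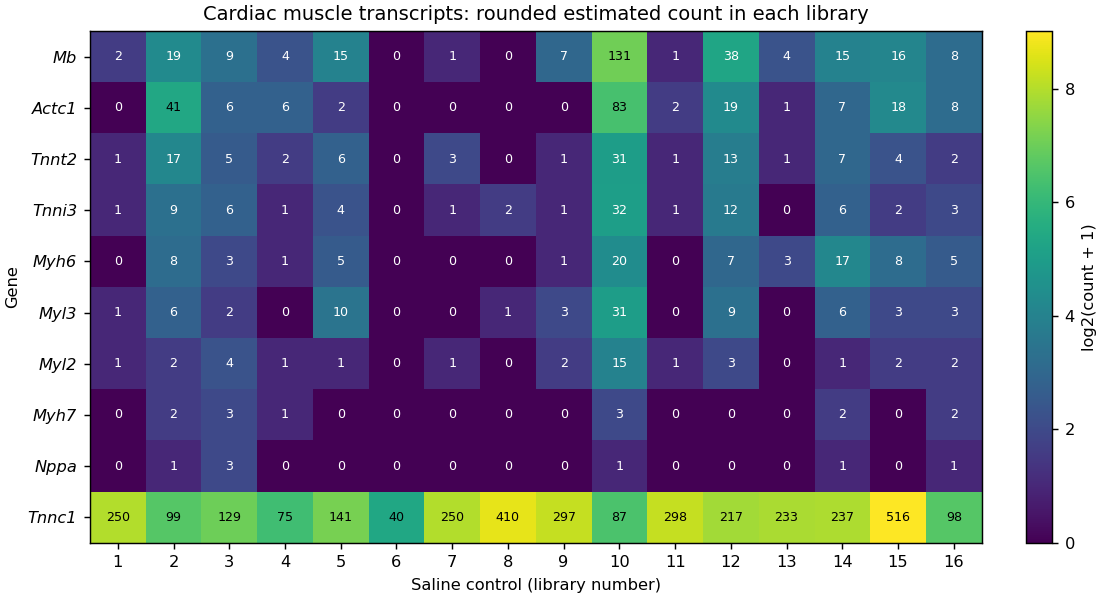
Rounded estimated count of each of the 10 genes (rows) in each of the 16 saline controls (columns), printed in each cell and coloured by log2(count + 1). Control 10 is bright from Mb to Myl2, with 131 counts of Mb and 83 of Actc1, and the bottom row shows Tnnc1 with 40 to 516 counts in every library.

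Mb, which encodes myoglobin, had a median of 7.5 counts, with none in controls 6 and 8, 38 in control 12 and 131 in control 10. The normalized level was 20.8 ± 49.5 (SD, n = 16) with control 10 and 8.56 ± 8.41 (n = 15) without it. Control 10 alone held 48.5% of all Mb counts, and its normalized level of 203.9 was 7.30 times that of control 12, the next highest at 27.95. By CPM, which does not use the low size factor of control 10, the same ratio was 3.75. The group spread of Mb was thus set largely by one animal.

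Actc1, the actin of the cardiac thin filament, was not detected in 5 libraries and reached 3 counts in 8. Its median was 4 counts and its highest values were 83 counts in control 10, 41 in control 2, 19 in control 12 and 18 in control 15. The normalized level was 129.2 in control 10 and 36.7 in control 2, a ratio of 3.52, or 2.51 by CPM. The mean fell from 14.3 ± 32.1 (n = 16) to 6.65 ± 9.91 (n = 15) when control 10 was left out.

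Of the other actins, the cytoplasmic actins Actb and Actg1 stood at 50446 ± 12868 and 37986 ± 14994 normalized counts (n = 16), and control 10 ranked 11 and 15 of the 16 libraries for them. The skeletal actin Acta1 was highest in control 10, at 10.9, followed by control 2 at 4.47, as was Actc1. Acta1 had no more than 7 counts in any library. Actins are closely related in sequence, and the estimates of Actc1 were whole numbers in every library. Whether reads were divided between the actins was not tested. Actc1 was at 0 in 5 libraries, and Actb had at least 34899 normalized counts in every library.

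Among the troponins, Tnni3 (inhibitory subunit) had a median of 2 counts and a range of 0 to 32. Its normalized level in control 10 was 49.8, against 8.83 in control 12, and the mean was 5.93 ± 12.0 (n = 16), or 3.00 ± 2.86 (n = 15) without control 10. Tnnt2 (tropomyosin-binding subunit) had a median of 2.5 counts and a range of 0 to 31. Its normalized level was 48.3 in control 10 and 15.2 in control 2, with a mean of 6.66 ± 11.8 (n = 16), or 3.88 ± 4.26 (n = 15) without control 10. Both were highest in control 10, by 5.64 and 3.17 times the next library on normalized counts and by 2.90 and 2.26 times by CPM.

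Tnnc1, the calcium-binding subunit of the cardiac and slow skeletal complex, behaved differently from its partners. It was present in every library, with a median of 225 counts, a lowest value of 40 in control 6 and a highest of 516 in control 15. The normalized level was 212.9 ± 139 (n = 16) and ranged from 35.3 in control 6 to 531.6 in control 8, followed by 481.1 in control 15. Control 10, at 135.4, held 2.58% of all Tnnc1 counts. In controls 1, 7, 8 and 11, where Tnnc1 had 250, 250, 410 and 298 counts, the 9 other members together had 6, 6, 3 and 6 counts.

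Of the myosin heavy chains, Myh6 is the fast alpha chain that dominates in the adult rat ventricle, and Myh7 is the slow beta chain. Myh6 had a median of 3 counts, none in 5 libraries, 17 in control 14 and 20 in control 10. The normalized levels of controls 10 and 14 were 31.1 and 17.0, a ratio of 1.83 (1.17 by CPM). Myh7 was at 0 in 10 libraries, and its highest values were 3 counts in controls 3 and 10, so no ratio was formed. Myh6 averaged 5.46 ± 8.20 and Myh7 0.878 ± 1.37 normalized counts (n = 16).

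The 2 heavy chains share much of their sequence, and their estimates carried a trace of this. Both estimates were fractions in 5 libraries, and in 5 of 5 the sum of the pair was whole to within 0.01. In control 10, 20.31 counts of Myh6 and 2.69 of Myh7 summed to 23. In control 14 the values were 16.76 and 2.24, which summed to 19. Of the 128 values of the 8 other members 1 was not whole. How many Myh7 counts were reads of Myh6 cannot be told from these estimates.

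Of the myosin light chains, Myl3 is the essential chain and Myl2 the regulatory chain of the ventricle. Myl3 had a median of 2.5 counts, none in 5 libraries, 10 in control 5 and 31 in control 10. Its normalized levels in controls 10 and 5 were 48.3 and 12.4, a ratio of 3.90 (3.41 by CPM). Myl2 had a median of 1 count, no more than 4 in any library but control 10, and 15 there. Its normalized level of 23.4 in control 10 was 8.51 times that of control 3 (4.35 by CPM), and the ratio rests on 15 counts against 4.

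Nppa, the precursor of atrial natriuretic peptide, was at 0 in 11 libraries and at 1 count in 4. Its highest value was 3 counts, in control 3, and control 10 had 1 count. It was the one member besides Tnnc1 that was not highest in control 10. At this depth no pattern across libraries was detectable for it.

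Most members thus peaked in the same animal. Control 10 was picked out by the summed level of these same members, so the counts of members given here follow in part from that choice and are a description only. On normalized counts 8 of the 10 were highest in control 10, where 10.5% of the 16448 genes with at least 3 counts in a library were highest. The normalized level was at least 3 times that of any other library for 6 members, against 0.304% of those genes. By CPM the number highest in control 10 was also 8, and the number at least 3 times the next library was 3. The shares over all genes were formed on normalized counts only. Control 10 had the lowest size factor, 0.642, while the highest was 1.46, and the erythroid gene Alas2 was highest there, at 631489 normalized counts against 538309 in control 5. The platelet genes Pf4 and Ppbp were lowest there, at 5424 and 12.5, against medians of 31277 and 149. Of the 9 blood markers 1 was highest in control 10, and the part of blood composition in these ratios was not tested.

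The sum of the 9 members other than Tnnc1 was formed after the values were seen, because Tnnc1 made up between 20.05% and 100% of the counts of all 10. This sum was 62.8 ± 130 normalized counts (SD, n = 16), with a median of 22.3 and a range from 0 in control 6 to 540.2 in control 10. The next libraries were control 2 at 94.0, control 12 at 74.3, control 14 at 62.0, control 5 at 53.2, control 15 at 49.4 and control 16 at 42.5. Without control 10 it was 30.99 ± 29.7 (n = 15), and without controls 10 and 2 it was 26.5 ± 25.0 (n = 14). Among the libraries other than control 10 the levels thus formed a gradient with no clear break. The sum of all 10 members was also highest in control 10, at 675.6, with control 8 next at 535.5 from Tnnc1. In raw counts and by CPM control 15 was highest for all 10 members, with 569 counts against 434 in control 10, while the 9 members were still highest in control 10, with 347 counts against 105 in control 2.

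**Figure D2:**
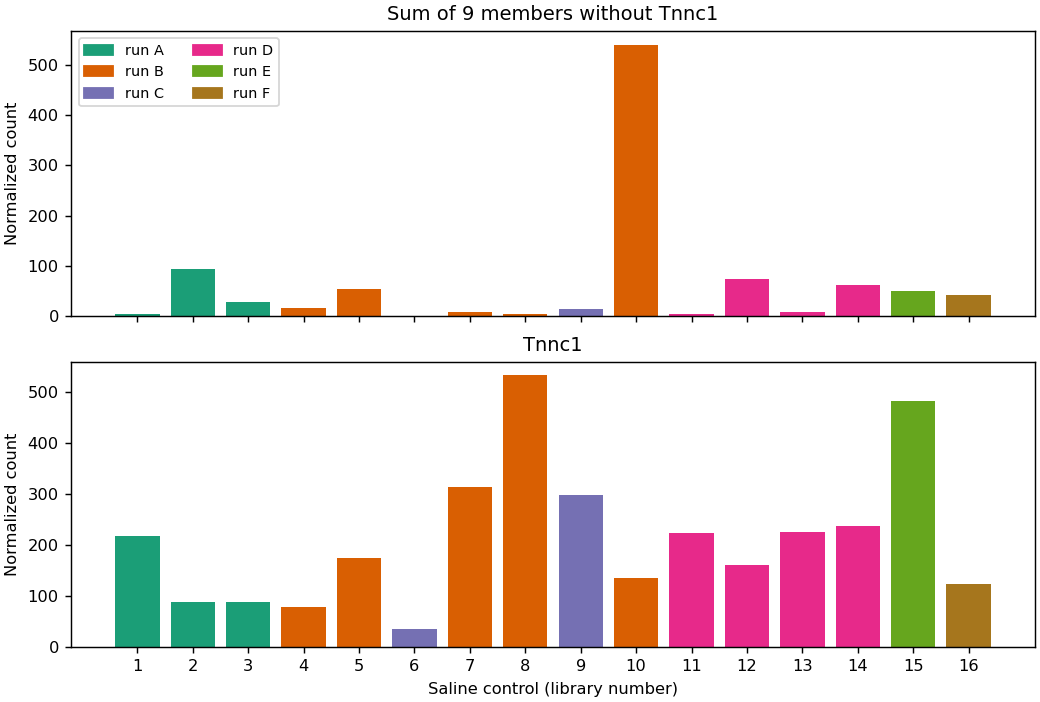
Normalized count in each of the 16 saline controls of the 9 members without Tnnc1, summed (top), and of Tnnc1 (bottom), with bars coloured by run code. Control 10 stands at 540.2 in the top panel, with control 2 next at 94.0, whereas control 8 is highest in the bottom panel at 531.6 and control 10 is at 135.4.

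The runs overlapped. The 9-member sum ranged from 5.23 to 94.0 in run A (3 libraries), from 3.89 to 540.2 in run B (5 libraries), from 0 to 15.0 in run C (2 libraries) and from 4.48 to 74.3 in run D (4 libraries), and runs E and F held 1 library each. Control 10 belonged to run B, and the next highest library of that run, control 5, had 53.2. Libraries with high and low cardiac levels therefore occurred in the same run.

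The mix of members differed between libraries with enough counts. Mb made up 37.8% of the 347 counts of the 9 members in control 10 (95% Wilson interval 32.8 to 43.0%) and 37.6% of the 101 counts in control 12 (28.8 to 47.4%). In control 2 it made up 18.1% of 105 counts (11.9 to 26.5%), below the interval of control 10. Actc1 showed the opposite order, with 39.0% in control 2 (30.3 to 48.6%) and 23.9% in control 10 (19.7 to 28.7%). In control 5, Actc1 made up 4.65% of 43 counts (1.28 to 15.5%), and this interval does not overlap that of control 2. The intervals cover counting error only.

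Across libraries, 6 members followed Mb. The correlation of log2(normalized count + 1) with Mb over the 16 libraries was r = 0.92 for Myh6, 0.91 for Tnnt2, 0.89 for Myl3, 0.86 for Actc1, 0.84 for Tnni3 and 0.84 for Myl2. Without control 10 these values were 0.89, 0.85, 0.81, 0.78, 0.72 and 0.71, in the same order. The sparse members Myh7 and Nppa gave 0.61 and 0.52, and 0.38 and 0.35 without control 10. Tnnc1 gave -0.05. These values are descriptive, because all genes of a library share its scaling and the mix of cells in its blood.

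Among the 13880 genes ranked by the same measure, excluding the members, the 4 with the highest correlation with Mb were muscle genes of a separate heart list. They were Cryab (r = 0.88), a small heat shock protein of muscle and lens, Cox6a2 (0.87), the muscle form of a cytochrome c oxidase subunit, Ckm (0.86), muscle creatine kinase, and Fabp3 (0.86), the heart fatty acid binding protein. They were followed by Tshz2, Gtpbp10, Ston1, Txk, Ydjc and Ndrg4, at 0.81 to 0.77, which were not on that list. Cryab and Fabp3 stood at 63.8 and 29.6 normalized counts in control 10, with control 2 next at 17.9 and 5.37. This ranking rested on a few libraries. With controls 10 and 6 left out, whose Mb levels were farthest from its median, the correlations of these 4 genes were 0.78, 0.77, 0.75 and 0.73, and 0 of the first 10 genes remained among the first 10. Without control 10 alone, 1 of the 10 remained.

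Tnnc1 had a different set of neighbours, which was looked up after its values had been seen. The 10 genes with the most similar pattern were Hmgn2 (r = 0.97), S100a11, Trem1, RGD1565374, S100a9, Tyrobp, Gng10, Lgals3, Id1 and Anxa2, all at 0.95 or higher and all highest in control 8. S100a9 encodes a calcium-binding protein abundant in neutrophils, Trem1 a receptor of neutrophils and monocytes, and Tyrobp the adaptor through which that receptor signals. S100a9 ranged from 17700 normalized counts in control 6 to 601975 in control 8, the same libraries at which Tnnc1 was lowest and highest. Without those 2 libraries the correlations were 0.93 to 0.97, and 3 of the 10 genes remained among the first 10. None of the 10 was on the heart list. In bulk blood, fewer cells of a type and less RNA per cell cannot be told apart, for Tnnc1 and for the other members.

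**Figure D3:**
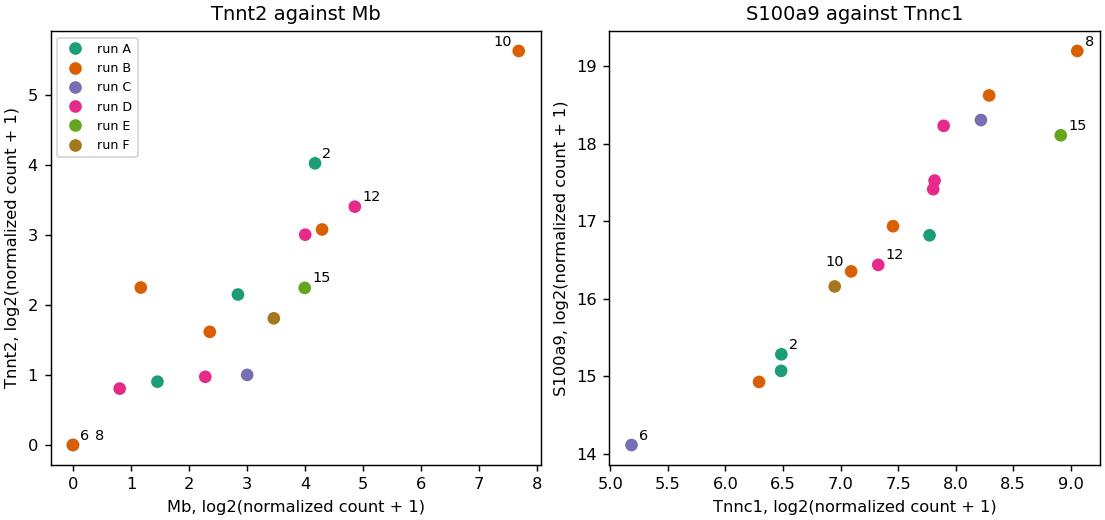
Levels in the 16 saline controls as log2(normalized count + 1), Tnnt2 against Mb (left) and S100a9 against Tnnc1 (right), with points coloured by run code and some libraries numbered. Tnnt2 followed Mb with r = 0.91 and control 10 stands apart at the top right (controls 6 and 8 coincide at 0), whereas S100a9 followed Tnnc1 with r = 0.96 and control 10 lies within the range of the others.

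Other genes of heart muscle were also read in control 10. Of a list of 30 such genes, 25 were listed in every file and 20 had at least 3 counts in a library. On normalized counts 15 of these 20 were highest in control 10, against 10.5% of all genes with at least 3 counts in a library. By CPM 13 were highest there, and the share over all genes was formed on normalized counts only. Ryr2, Ldb3, Smpx and Ckmt2 reached 3 counts only in control 10, so they entered the 20 through the library where they were highest. Control 10 had been picked by the members' levels, and the list was chosen with earlier results known. These numbers are therefore a description only. In control 10, 8 of the 20 were at least 3 times the next library on normalized counts, against 0.304% of all such genes. This number was not formed by CPM. Of the 8, Ryr2, Ldb3, Ckm, Ckmt2 and Cox8b had no more than 8 counts in any library. The summed normalized level was 347.2 in control 10, 126.2 in control 2 and 89.3 ± 71.4 over all (n = 16). Pln, the inhibitor of the calcium pump of the sarcoplasmic reticulum, stood at 18.7 in control 10 and at no more than 4.66 in any other. Ckm stood at 12.5 and at no more than 2.21 elsewhere, and Myoz2, a protein of the Z-disc, at 15.6 against 6.62 in control 12. Myoz2 had no more than 10 counts in any library. Its gap rests largely on the size factors, 0.642 in control 10 and 1.36 in control 12. Ankrd1, a stress-responsive protein of cardiac muscle, was at 28.0 in control 10 and 18.8 in control 2. In raw counts control 2 was higher for Ankrd1, so this order rests on the scaling. Actn2 and Mybpc3 were read in nearly all libraries, at 31.7 ± 13.7 and 13.4 ± 6.53 (n = 16). Actn2 was highest in control 10, at 57.6 against 49.5 in control 6, an order that rests on their size factors, 0.642 and 1.13. Mybpc3 ranked 2 in control 10, at 21.8 against 22.5 in control 7, a rank that also rests on the size factor of control 10.

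Paralogs of the other members differed in level and in where they peaked. Myh9, a non-muscle myosin heavy chain, stood at 9935 ± 3175 normalized counts (n = 16), with control 10 ranked 15 of 16. Myl6 and Myl9, light chains of non-muscle and smooth muscle myosin, were lowest in control 10, at 7522 and 2933. Tnnc2, the troponin C of fast skeletal muscle, averaged 6.36 ± 3.04, and control 10 ranked 3 for it at 9.34. Cygb, a globin related to myoglobin that is found in fibroblasts, was highest in control 10, at 76.3 against a mean of 29.4 ± 17.8. Acta2 was not listed in every file and was left out.

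Markers of the ventricle summed highest in control 10, while the order for markers of the atrium depended on the scaling. The ventricular genes Myl2, Myl3, Myh7 and Irx4 summed to 76.3 normalized counts in control 10 and to no more than 13.6 in any other library, although Irx4 had no more than 1 count anywhere. The atrial genes Nppa, Nppb, Myl4 and Myl7 summed to 9.34 normalized counts in control 10 and to 7.54 in control 3, the next highest. None of these genes had more than 5 counts in any library, and Nppa and Myl7 were highest in control 3. The size factor was 0.642 in control 10 and 1.46 in control 3, and the order of the 2 sums rests on this difference. Of the 4 ventricular genes 3 are members, so that sum is not separate from the values above.

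The summed level of skeletal muscle genes did not peak with the cardiac members, although single genes of the list did. The 17 of 18 that were listed in every file summed to 239.7 in control 10 and to 361.5 in control 1, the highest. Most of this came from Tnnt3, Mylpf and Atp2a1, which were read in all 16 libraries at 132.4 ± 38.4, 68.6 ± 26.7 and 28.1 ± 10.8 (n = 16). Of the 11 genes with at least 3 counts in a library, 2 were highest in control 10, against 10.5% of all such genes. They were Acta1, at 10.9 against 4.47 in control 2, and Myoz1, a Z-disc protein, at 6.23 against 3.68 in control 12. Acta1 had no more than 7 counts in any library. Myoz1 had no more than 5 counts in any library, and its order rests on the size factors. Myh4, a myosin heavy chain of fast skeletal fibres, had no count in any library, and Myh1, Pvalb and Myl1 had no more than 2 counts. None of the 7 smooth muscle genes listed in every file was highest in control 10. Mylk, a myosin light chain kinase that carries most of their sum, was lowest there, at 417.2 against a median of 3598. Myh11 was at 14.0 against a median of 16.2, Tagln at 9.34 against 12.4, and Cnn1 had no count in any library.

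Genes of other tissues moved with the cardiac members in part. The 8 fibroblast genes summed to 1879 in control 10 and to 2001 in control 12, against a median of 102.6, with 5 highest in control 10 and 3 in control 12. Of all genes with at least 3 counts in a library, 10.5% were highest in control 10. That share was not computed for controls 12 and 2, so the numbers of genes highest there are a description only. The size factor was 0.642 in control 10 and 1.36 in control 12, and the order of these controls for Col1a2, Dcn and Lum rests on this difference. Col1a1, a chain of type I collagen, was at 266.2 in control 10 and 112.5 in control 12. The 6 genes of mesothelium, the lining of the pericardium and other body cavities, were all highest in control 12, with a sum of 523.7, and control 10 was next at 214.8 against a median of 16.1. Of the 10 adipocyte genes 7 were highest in control 12. Control 10 was next for Adipoq, which encodes adiponectin (68.5 against 1042), and for Plin1 (7.78 against 35.3), Fabp4 (260.0 against 1965) and Lpl (168.1 against 625.2). Control 2 was next for Car3 and Cidec and highest for Pck1, at 2797, while Adipoq was at 0.895 there. The 12 hepatocyte genes were all highest in control 2, at 547936, with 5506 in control 10. Of the 10 endothelial genes 2 were highest in control 10, Egfl7 at 29.6 against 27.7 in control 2 and Aqp1, which erythroid cells also express, at 33526 against 30381 in control 5. Both orders rest on the size factors, which were 1.12 in control 2 and 0.808 in control 5. Cdh5, Emcn and Cldn5 were highest in control 12, at 9.56, 66.2 and 3.68, with 4.67, 9.34 and 1.56 in control 10. The part of these tissues in the levels of the members was not tested.

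**Figure D4:**
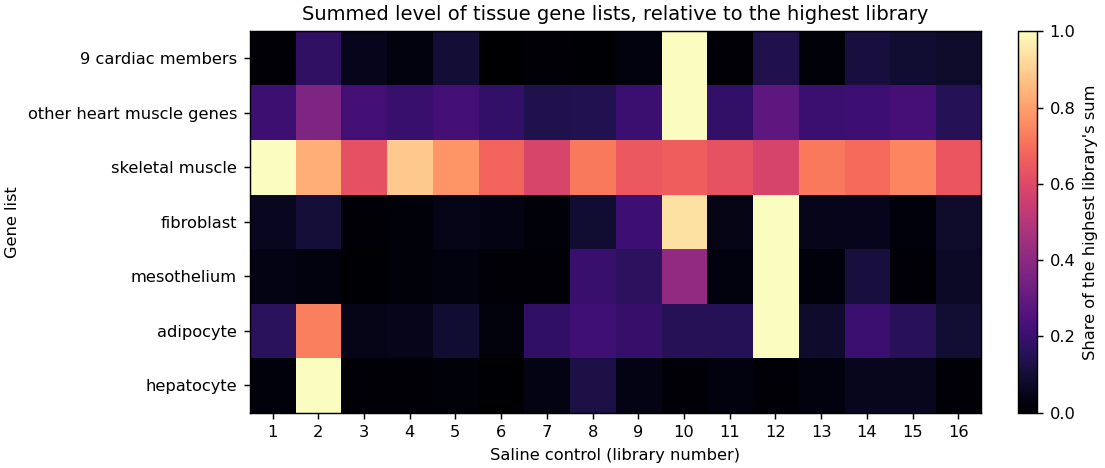
Summed normalized level of 7 gene lists (rows) in the 16 saline controls (columns), each as a share of the library with the highest sum. The 9 cardiac members and the other heart muscle genes peak in control 10, fibroblast genes in controls 12 and 10, mesothelium and adipocyte genes in control 12 and hepatocyte genes in control 2, while skeletal muscle genes are spread over all libraries.

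Seen from control 10 itself, heart genes led the genes that were higher there than anywhere else. Among 11697 genes with at least 10 counts in control 10, none was 10 times the level of every other library, and 11 were at least 4 times, of which 6 had a symbol. Those 6 were Myl2, Mb, Tnni3, Fabp3, Col5a1 and Pln. By CPM the ratio was 4.35 for Myl2, 3.75 for Mb and 2.90 for Tnni3. Control 10 had been picked by the members' own levels, so the place of the members in this ranking follows in part from that choice. Of the first 20 with a symbol on normalized counts, 9 were heart genes, 6 of them members. The others included the matrix genes Mmp2 (3.64 times the next library), Nid1 (3.17) and Mfap4 (2.96). When genes listed in only some files were included, 3 entries without a symbol, with 64, 41 and 11 counts, had at least 10 times the level of the other libraries that listed them, all at 0.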

How the data were processed

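The authors trimmed the reads with fastq-mcf after base calling with CASAVA 1.8.2, and used Bowtie 0.12.9 to align them to Ensembl transcripts of rat build rn5. Gene-level estimated counts made with RSEM 1.2.0 were deposited. They are not normalized, and where a read matches more than one transcript RSEM splits it. The study replaced outlying values before its analysis, which was not done here. Counts were rounded to whole numbers and divided by DESeq2 1.42.0 size factors, computed over the 18031 genes listed in every file. Genes missing from a file were treated as not measured there. edgeR 4.0.16 (TMM) and CPM were alternatives. Likeness was Pearson's r of log2(normalized count + 1) for genes with a mean of at least 1, and its code was tested on simulated data. Python 3.11.15 and R 4.3.3 were used.

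No test across groups was possible with one group. The members and gene lists were chosen with earlier results of these data known. Named genes were the members, their relatives, the 10 most like Mb and the 20 with a symbol that were highest relative to any other library in control 10. Not every relative is reported here. No protein or transcript lengths were used, so levels per length were not computed. The rats are labelled as separate controls, and the spread between them is that of single libraries. A check for duplicate libraries found none (lowest chi-square per degree of freedom between a pair 48.0, controls 11 and 13).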

Additional observations from a re-analysis of the deposited data

Results flagged for a closer look

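Within the runs of 4 or 5 libraries, 22 comparisons were made of the gap between the extreme library and its nearest neighbour, divided by the range of the run, and 12 were above Dixon's 95% critical value, which about 1 in 20 such groups exceed by chance. The members were chosen with these levels known, they moved together, and their sum repeats them, so these ratios describe where the gap lies and support nothing further. In run B (5 libraries) control 10 was the far library with a ratio of 0.909 for Mb, 0.952 for Actc1, 0.920 for Tnni3, 0.846 for Tnnt2, 0.801 for Myh6, 0.779 for Myh7, 0.947 for Myl2, 0.743 for Myl3 and 1.00 for Nppa. The sum of the 9 members gave 0.908. For Myh7 and Nppa this rests on 3 counts and 1 count in control 10, and for Nppa the other libraries of the run were at 0, which fixes the ratio. In run D (4 libraries) control 14 was the far library for Myh7 and for Nppa, with a ratio of 1.00 for each, which rests on 2 counts and 1 count while the other libraries of the run were at 0, which again fixes the ratio.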

How the results depend on the processing

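Of 82 alternatives over 18 results, 16 moved a value beyond the spread between libraries or a count by more than 1.5 times. That spread includes control 10, so it hides the effect of leaving control 10 out, which lowered the mean level of Mb from 20.8 to 8.56, Actc1 from 14.3 to 6.65, Tnni3 from 5.93 to 3.00, Tnnt2 from 6.66 to 3.88, Myl2 from 2.66 to 1.28 and Myl3 from 5.73 to 2.90. With a floor of 1 count 115 values were above it, and with a floor of 10 counts 36 were, against 73. The summed level of the 10 members was 275.7, and it was 62.8 without Tnnc1, an alternative chosen after seeing the data. Of the 10 genes most like Mb, 4 remained by Spearman's rho, 0 without the 2 farthest libraries, 5 with a pseudocount of 5 and 5 with a minimum mean of 5. In alternatives added after seeing the data, 6 remained by CPM, 4 after centring within runs and 1 without control 10. Of those most like Tnnc1, 5 remained by Spearman's rho, 3 without the 2 farthest libraries and 4 after centring, also added later. The number of genes at least 10 times any other library in control 10 was 0, against 11 at a ratio of 4 and 3 when genes listed in some files only were included. Members at least 3 times the next library numbered 6, and 3 by CPM. The cause of these shifts was not tested, except that dropping Tnnc1 removes its own counts. Of the 10 members 8 had fewer than 3 counts in 7 or more libraries, so counting error limits their values. No paired analysis was possible because the labels give a single group.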
